A study of Homo sapiens with 4 samples.

Results

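The immediate early genes described here are FOS, FOSL1, JUN, JUNB, JUND, EGR1, ATF3, IER2, IER3 and KLF6, which were chosen by name as AP-1 factors and other early response genes. They are 10 of the 60612 genes in the deposited expression table, each found in 1 row, and all 10 passed the filter on low values. They were read in the human cell line NCI-N87, established from a gastric carcinoma, in 2 libraries from cells given the ZSCAN18 vector (PLVX-IRES-Puro-ZSCAN18) and 2 from cells given the empty vector (PLVX-IRES-Puro). ZSCAN18 belongs to the zinc finger proteins that carry a SCAN domain, a protein interaction module. Transfection lasted 24 hours, puromycin selection took the last 4 of 5 days with the vector, and both groups went through it. Cells were grown in medium with fetal bovine serum.

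Immediate early genes are the first to be transcribed after a growth factor or stress signal, from promoters at which proteins such as SRF, the ELK factors and CREB are already bound and are acted on by MAP kinases. Many of them encode transcription factors. JUN and FOS proteins pair through leucine zippers into AP-1, which binds DNA. EGR1 and KLF6 are zinc finger factors, and ATF3 is a stress-induced relative of the AP-1 proteins that often represses.

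Of the 10 genes, 0 changed at an adjusted p under 0.05 (limma, Benjamini-Hochberg over all tested genes), where 1.77% of all 11822 tested genes did. KLF6 and JUND had the largest positive differences of the genes whose groups did not overlap, with a log2 fold change of 0.66 and 0.41, and EGR1 and JUNB the largest negative ones, with -0.29 and -0.23. ATF3 also stood at 0.41, at a far lower level. The median over the 10 genes was 0.04, the same as the median of 0.04 over all tested genes, with 5 genes positive and 5 negative; 57.1% of all tested genes were positive. An unadjusted p under 0.05 was given to 5 of the 10, against 26.8% of all tested genes. The ZSCAN18 and empty vector libraries did not overlap in 7 of the 10, a separation that 60.2% of all tested genes showed.

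The promoters are shown for JUN, ATF3, KLF6, JUND and EGR1, because letters of known early response elements stood in these windows and these genes had the differences described below. RefSeq promoter windows (GRCh38.p14) were found for 8 of the 10 genes, all but FOSL1 and IER3; each window printed is the 250 bases before the annotated start, 5′ to 3′ on the gene's strand. Capitals mark TGACNTCA in the first 4, the element bound by ATF, CREB and AP-1 dimers, and the CArG box, the element bound by SRF, in EGR1. The windows are chr1:58784048-58784297 (minus strand) for JUN, chr1:212565157-212565406 (plus) for the upstream start of ATF3, chr10:3785210-3785459 (minus) for KLF6, chr19:18281623-18281872 (minus) for JUND and chr5:138465229-138465478 (plus) for EGR1.
JUN: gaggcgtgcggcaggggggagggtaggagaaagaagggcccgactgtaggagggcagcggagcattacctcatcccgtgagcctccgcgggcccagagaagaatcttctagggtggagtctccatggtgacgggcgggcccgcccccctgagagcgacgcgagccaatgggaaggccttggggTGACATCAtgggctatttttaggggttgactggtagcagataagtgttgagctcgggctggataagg
ATF3: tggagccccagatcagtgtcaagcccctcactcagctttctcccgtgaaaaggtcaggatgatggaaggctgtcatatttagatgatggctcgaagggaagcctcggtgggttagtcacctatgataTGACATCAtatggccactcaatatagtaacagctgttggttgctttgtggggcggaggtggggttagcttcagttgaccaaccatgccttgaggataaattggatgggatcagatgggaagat
KLF6: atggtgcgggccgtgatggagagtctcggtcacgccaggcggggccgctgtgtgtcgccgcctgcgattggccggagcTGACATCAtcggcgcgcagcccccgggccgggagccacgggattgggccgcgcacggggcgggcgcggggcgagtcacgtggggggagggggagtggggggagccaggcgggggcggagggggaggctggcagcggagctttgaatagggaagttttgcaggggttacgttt
JUND: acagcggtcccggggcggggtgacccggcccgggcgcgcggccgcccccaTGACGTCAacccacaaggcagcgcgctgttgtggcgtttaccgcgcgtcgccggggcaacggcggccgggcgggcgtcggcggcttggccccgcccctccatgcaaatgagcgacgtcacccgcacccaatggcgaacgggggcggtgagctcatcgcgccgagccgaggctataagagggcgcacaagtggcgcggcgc
EGR1: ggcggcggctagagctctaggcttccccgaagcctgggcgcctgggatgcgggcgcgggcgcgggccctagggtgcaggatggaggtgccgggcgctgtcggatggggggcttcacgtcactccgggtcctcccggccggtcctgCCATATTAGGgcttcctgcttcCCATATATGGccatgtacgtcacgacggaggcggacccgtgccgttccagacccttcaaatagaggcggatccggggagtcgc

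Both strands were searched for TGACNTCA, for TGANTCA and for the CArG box, and a match to TGACNTCA does not hold one to TGANTCA within it. The 8 letters stood at 67 to 60 bases before the start of JUN, 123 to 116 before the upstream start of ATF3, 172 to 165 before that of KLF6 and 200 to 193 before that of JUND. In JUN, ATF3 and KLF6 the match read TGACATCA and in JUND it read TGACGTCA. EGR1 held 2 CArG boxes, CCATATTAGG at 105 to 96 bases and CCATATATGG at 83 to 74 bases before its start. No window of the 8 genes held TGANTCA, and those of FOS, JUNB, IER2 and the downstream start of ATF3 held no match to any of the letters searched. Of all 35116 RefSeq windows of the same length, 6.87% held TGACNTCA, 6.57% held TGANTCA and 1.16% held a CArG box. The letters were chosen after these windows had been read, and a match is a string of letters and not a binding site. The 4 genes with TGACNTCA had positive fold changes, and 0 of them passed in limma. Over the 623 tested genes with the string in a window 59.9% were positive, the median log2 fold change was 0.07 and 2.41% were called. Over the 7917 without it these were 57.7%, 0.04 and 1.63%.

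The libraries can be placed as follows. ZSCAN18 itself had an FPKM of 116 and 112 in the ZSCAN18 libraries, against 0.108 and 0.144 in the empty vector libraries (log2 fold change 6.67, limma adjusted p = 4.13e-04), although their columns were assigned to the group by elimination. FPKM counts fragments for each kilobase of a transcript and corrects for library depth, so levels can be set side by side between genes. Depths estimated from the lowest values were 23100000 and 23400000 fragments for ZSCAN18 and 23800000 and 24600000 for the empty vector. Across all tested genes 94 rose and 115 fell with ZSCAN18 (92 and 189 after rescaling by the median of ratios). The summed FPKM of 6 epithelial markers was 3694 and 3865 with ZSCAN18, against 4451 and 4209 with the empty vector; one of them, the keratin KRT18, fell (log2 -0.39, limma adjusted p = 0.0408). The other 5 did not pass: the keratins KRT8 and KRT19 stood at -0.43 and 0.01, the cadherin CDH1 at 0.32, EPCAM at -0.10 and ERBB2 at -0.21. The sum of 6 leukocyte markers was 4.25 and 4.70 with ZSCAN18, against 6.09 and 7.67 with the empty vector, most of it CD68 and LYZ, with PTPRC at 0.169 or less in every library. That of 6 fibroblast markers was 0.818 to 2.64, and that of 5 endothelial markers 0.116 to 0.413. The part of these markers in the results was not tested. In bulk RNA, fewer cells of a type and less RNA per cell cannot be told apart. The labels do not say that the libraries came from separate cultures, so the p-values reflect the differences between these particular libraries alone, and part of that spread can be technical.

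The genes spanned a wide range of levels. With ZSCAN18 the order by mean FPKM was JUNB at 65.2 ± 2.81 (SD, n = 2), IER2 at 42.9 ± 2.88, IER3 at 25.2 ± 3.12, JUND at 24.6 ± 1.65, EGR1 at 22.4 ± 0.663, FOSL1 at 16.7 ± 0.339, KLF6 at 11.8 ± 0.476, JUN at 11.6 ± 0.130, ATF3 at 1.69 ± 0.263 and FOS at 1.60 ± 0.752. The libraries of neighbours overlapped between IER3 and JUND, between KLF6 and JUN and between ATF3 and FOS. With the empty vector JUNB at 76.9 ± 2.79 and IER2 at 42.9 ± 2.36 also came first, followed by EGR1 at 27.7 ± 1.33 and IER3 at 27.4 ± 0.366, which overlapped each other. Below them stood JUND at 18.2 ± 1.33, FOSL1 at 15.7 ± 0.00624, JUN at 9.98 ± 0.551, KLF6 at 7.15 ± 1.10, FOS at 1.82 ± 0.176 and ATF3 at 1.03 ± 0.328. Among all tested genes JUNB lay at the 96.0th percentile with ZSCAN18 and at the 96.5th with the empty vector. FOS lay at the 12.5th with ZSCAN18 and the 17.5th with the empty vector, and in both groups FOS and ATF3 were the least abundant of the 10. From the longest annotated transcript, FOS rested on about 53 fragments in its lowest library and ATF3 on about 39, a counting error of 13.7% and 16.0%, and the other 8 genes on about 610 to 2800 fragments each.

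**Figure D1:**
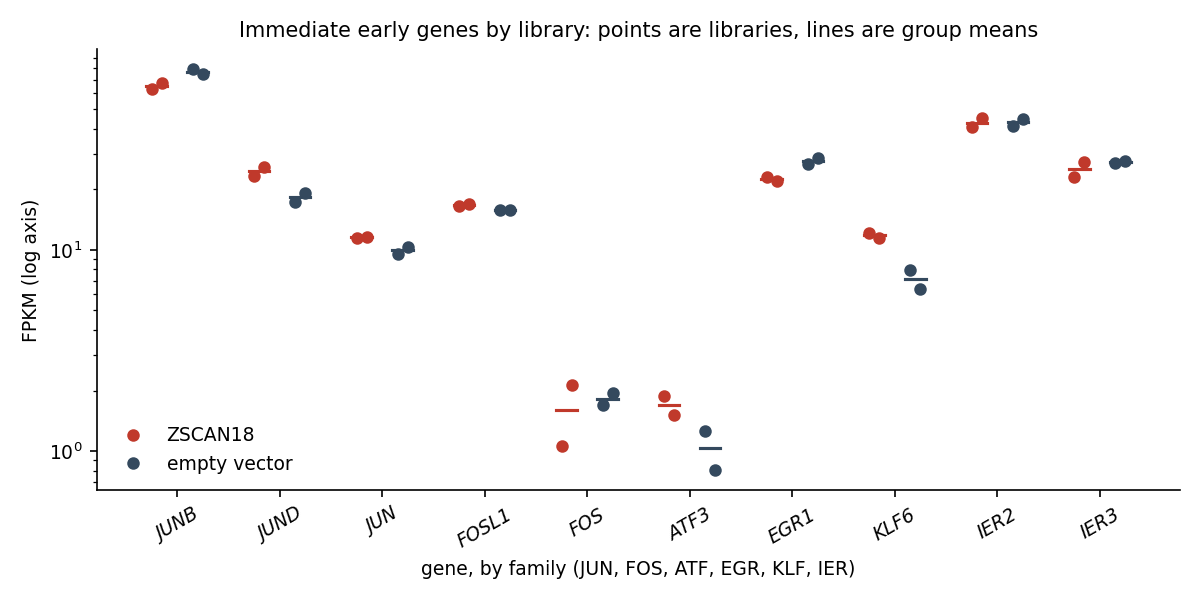
FPKM on a log axis for each of the 10 genes; points are the 4 libraries (ZSCAN18 left, empty vector right of each gene) and short lines are the group means. KLF6, JUND, JUN, FOSL1 and ATF3 have their ZSCAN18 libraries above the empty vector libraries, JUNB and EGR1 have them below, and FOS, IER2 and IER3 overlap.

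The JUN family supplies a partner to every classical AP-1 dimer. JUNB, which is often a weaker activator than JUN, had an FPKM of 63.3 and 67.2 with ZSCAN18, against 78.8 and 74.9 with the empty vector. Both ZSCAN18 libraries lay below both empty vector libraries. On the scale of log2(FPKM + 1) the fold change was -0.23 (SE 0.058, 95% interval -0.39 to -0.07), and the limma adjusted p was 0.116. JUND, the family member that varies least with growth signals, had 23.4 and 25.7 with ZSCAN18, against 17.3 and 19.1 with the empty vector. Its groups were apart in the other direction, with a log2 fold change of 0.41 (SE 0.084, interval 0.18 to 0.64) and a limma adjusted p of 0.0886. JUN, the founding member and the substrate of the JNK kinases, had 11.5 and 11.6 with ZSCAN18, against 9.59 and 10.4 with the empty vector. Its difference of 0.19 (SE 0.065, interval 0.01 to 0.38) also missed the threshold, with a limma adjusted p of 0.171. None of these genes overlaps another gene with an FPKM of 1 or more in the table, and JUN and JUNB (chromosome 1, 58780791 to 58784047, and chromosome 19, 12791486 to 12793315, GRCh38) each have 1 transcript of 1 exon in GENCODE release 29.

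The JUN transcripts summed to an FPKM of 98.1 and 104.6 with ZSCAN18, against 105.7 and 104.4 with the empty vector, so the total overlapped between the groups. Within that sum JUNB held 64.5 and 64.3% with ZSCAN18, against 74.6 and 71.7% with the empty vector. JUND held 23.8 and 24.6% with ZSCAN18, against 16.3 and 18.3% with the empty vector. The share of JUN was 11.7 and 11.1% with ZSCAN18, against 9.07 and 9.93% with the empty vector. All 3 shares were apart between the groups, but they add to 100%, so they are not independent of each other. The FPKM of each of the 3 genes was apart too, a separation that 60.2% of all tested genes showed. The shares were computed after the single values had been seen and were not tested. With 2 libraries per group 0.333 is the smallest p that exact permutation allows.

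FOS proteins, which form AP-1 only with a JUN partner, were represented mainly by FOSL1 and by FOSL2, a relative outside the 10 genes. FOS had an FPKM of 1.07 and 2.13 with ZSCAN18, against 1.70 and 1.94 with the empty vector. The ZSCAN18 libraries differed more from each other and enclosed both empty vector libraries. The log2 fold change was -0.15 (SE 0.23, interval -0.79 to 0.49, limma adjusted p = 0.711), and without the first ZSCAN18 library it was 0.15, so no direction can be given. FOSL1, a Fos-related protein common in invasive carcinoma lines, had 16.5 and 17.0 with ZSCAN18, against 15.7 and 15.7 with the empty vector. The groups were apart by a small amount, 0.09 (SE 0.052, interval -0.06 to 0.23, limma adjusted p = 0.363), which was 0.04 after rescaling by the median of ratios (limma adjusted p = 0.673). FOSL2 had 24.4 and 23.6 with ZSCAN18, against 18.1 and 17.3 with the empty vector, a log2 fold change of 0.42 (SE 0.055, limma adjusted p = 0.0576), and it passed at 0.0419 with the filter at an FPKM of 5. The 4 FOS family transcripts, FOSB included, summed to 43.0 and 43.2 with ZSCAN18, against 35.7 and 35.8 with the empty vector, and FOSL2 held 56.9 and 54.7% of that with ZSCAN18, against 50.7 and 48.4% with the empty vector.

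**Figure D2:**
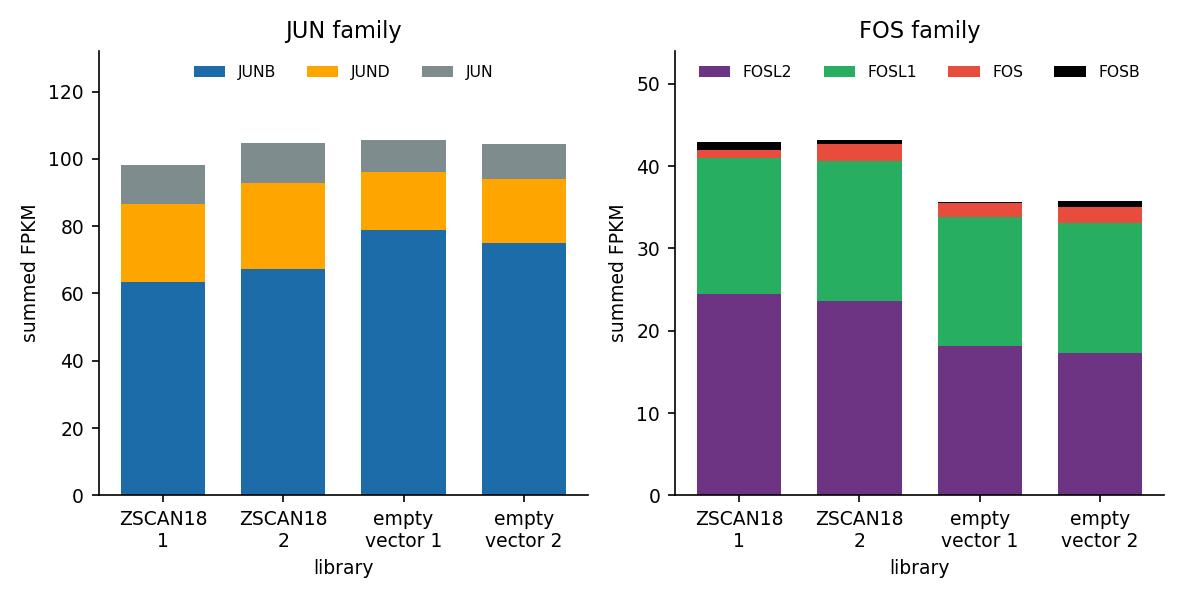
Summed FPKM of the JUN family (left) and FOS family (right) in each library, ZSCAN18 libraries first; colours are genes, and bars start at 0. The JUN sums lie between 98.1 and 105.7 with a smaller JUNB part in the ZSCAN18 libraries, and the FOS sums are 43.0 and 43.2 with ZSCAN18, against 35.7 and 35.8 with the empty vector.

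KLF6, a zinc finger factor that has been described as a growth suppressor, had the lowest p of the 10 genes (chromosome 10, 3775996 to 3785209, minus strand, GRCh38). Its FPKM was 12.1 and 11.5 with ZSCAN18, against 7.93 and 6.37 with the empty vector. Both ZSCAN18 libraries were higher than both empty vector libraries, which also differed from each other by more than the ZSCAN18 libraries did. The log2 fold change was 0.66 (SE 0.12, interval 0.34 to 0.98), and the limma adjusted p was 0.0773. In the authors' deposited table KLF6 had a log2 fold change of 0.72 with a q-value of 0.0449, which made it the 1 gene of the 10 with a q-value under 0.05 there; 2.78% of all tested genes had one. The 3 genes whose pattern over the 4 libraries lay closest to that of KLF6 were TGIF1, SGTB and C1orf115, at distances of 0.0536, 0.0832 and 0.0921 in centred log2(FPKM + 1). TGIF1 had an FPKM of 5.97 and 5.82 with ZSCAN18, against 3.81 and 2.83 with the empty vector. None of the 3 passed (limma adjusted p = 0.0837, 0.0701 and 0.0620), and such a search names 3 genes whatever the member.

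EGR1 (chromosome 5, 138465479 to 138469303, plus strand, GRCh38), an early zinc finger factor that ERK signalling acts on through SRF and ELK factors, had an FPKM of 22.9 and 22.0 with ZSCAN18, against 26.8 and 28.7 with the empty vector. The ZSCAN18 libraries were the lower ones. The log2 fold change was -0.29 (SE 0.061, interval -0.46 to -0.12), with a limma adjusted p of 0.0917; the authors' deposited table gives it a p-value of 0.0355 and a q-value of 0.371. EGR2, EGR3 and EGR4, its closest relatives, had at most 0.473 in any library and were not tested. ATF3 had 1.88 and 1.51 with ZSCAN18, against 1.27 and 0.802 with the empty vector. The groups were apart, but ATF3 was the lowest of the 10 genes with the empty vector. Its log2 fold change was 0.41 (SE 0.16, interval -0.03 to 0.86, limma adjusted p = 0.206), and the pseudocount of 1 holds it down, since it was 0.68 with a pseudocount of 0.1. It was 0.25 without the second empty vector library.

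IER2 and IER3 are short early response genes without a zinc finger or leucine zipper; IER2 is a nuclear protein, and IER3 takes part in survival signalling. IER2 had an FPKM of 40.9 and 44.9 with ZSCAN18, against 41.3 and 44.6 with the empty vector. The groups covered the same range. The log2 difference was -0.002 with an interval of -0.21 to 0.21 (limma adjusted p = 0.991), and its sign turned with quantile normalization. IER3 had 23.0 and 27.4 with ZSCAN18, against 27.1 and 27.6 with the empty vector. The second ZSCAN18 library lay among the empty vector libraries and the first below them. Its difference was -0.12 (interval -0.40 to 0.15, limma adjusted p = 0.472), and it was -0.0005 without that first library.

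**Figure D3:**
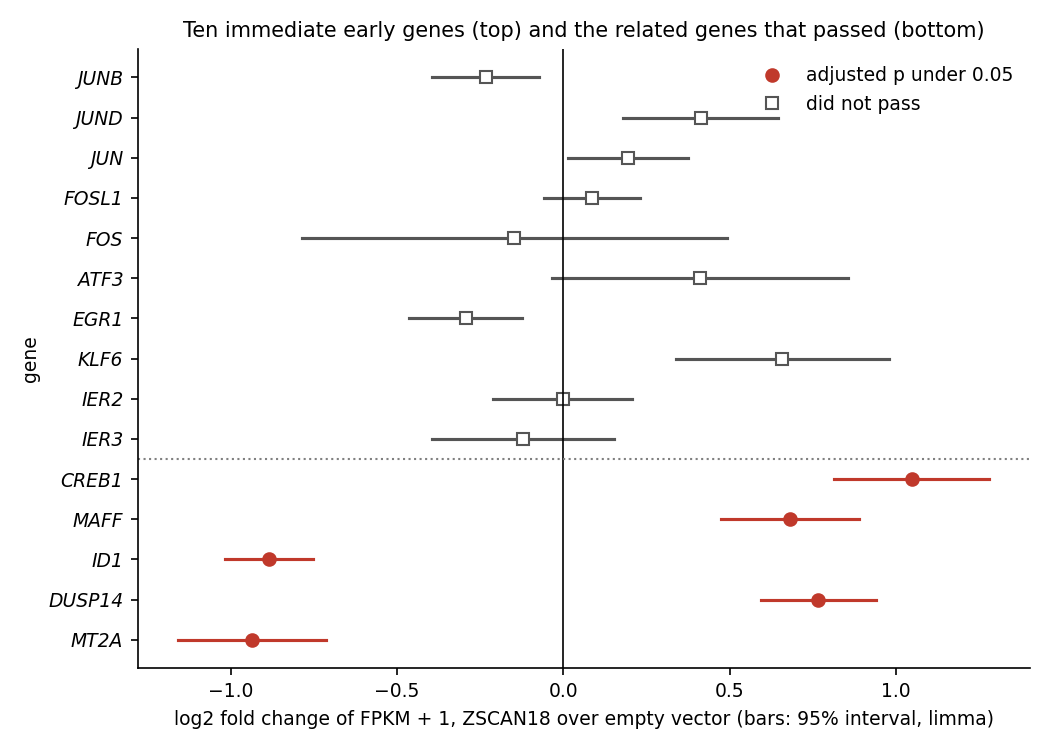
Log2 fold change of FPKM + 1, ZSCAN18 over empty vector, with its 95% interval from limma, for the 10 genes (above the dotted line) and for the 5 related genes that passed (below it). The open squares of the 10 genes lie between -0.29 and 0.66 and none passed, while CREB1, MAFF and DUSP14 lie to the right and ID1 and MT2A to the left.

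Related genes were read from 5 lists, which hold 111 genes, of which 89 were tested. With ZSCAN18, 3 of these rose (background 0.795%) and 2 fell (background 0.973%). The list of other AP-1, ATF, MAF and CREB proteins had 2 of 9 tested genes that rose, 0 that fell and a median log2 fold change of 0.35. CREB1, which binds the cyclic AMP response element and activates FOS, had an FPKM of 2.98 and 2.93 with ZSCAN18, against 0.864 and 0.966 with the empty vector (log2 1.05, SE 0.084, limma adjusted p = 0.0357). With a pseudocount of 0.1 its value was 1.59. CREB1 met the filter on low values only through its ZSCAN18 libraries, so it entered these counts through the group where it was higher. CREB1 overlaps METTL21A, an expressed gene on the opposite strand, and no source used here says whether reads were counted by strand. MAFF, a small MAF protein that is itself induced early, had 4.83 and 4.48 with ZSCAN18, against 2.51 and 2.54 with the empty vector (log2 0.68, SE 0.075, limma adjusted p = 0.0476). ATF2, a partner of JUN, had a difference of 0.44 that did not pass (limma adjusted p = 0.115).

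Of 27 tested genes among other immediate early genes 0 rose and 1 fell, with a median of -0.06. ID1, an inhibitor of basic helix-loop-helix factors that BMP signals induce, fell to 24.5 and 25.2 FPKM with ZSCAN18, against 46.8 and 46.7 with the empty vector (log2 -0.89, SE 0.047, limma adjusted p = 0.0231). IER5L, a relative of the IER2 family, stood at -0.72 (adjusted p = 0.0563 in limma). The RNA-binding proteins ZFP36L2 and ZFP36L1, which speed the decay of AU-rich early transcripts, stood at -0.39 and -0.40 with adjusted p-values of 0.0563 and 0.0587 in limma. All 3 passed in limma after rescaling by the median of ratios, at 0.0484, 0.0452 and 0.0472. With the filter at an FPKM of 5 they also passed, at 0.0442, 0.0401 and 0.0414. IER5L met that filter only through the empty vector libraries, at 7.17 and 6.42, against 3.52 and 3.92 with ZSCAN18. Those settings called 281 and 370 genes of the whole table, against 209. With quantile normalization only IER5L of the 3 passed (limma adjusted p = 0.0491). None of the 3 passed without a filter, without the variance trend or with the replicate block. In all 4 libraries KLF2 and NR4A3 had an FPKM under 1, as did FOSB of the AP-1 list, and they were not tested.

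Of 17 tested feedback genes of ERK and EGR signalling 1 rose and 0 fell, with a median of -0.05. DUSP14, a dual-specificity phosphatase, had 19.9 and 19.0 with ZSCAN18, against 11.3 and 10.7 with the empty vector (log2 0.77, SE 0.063, limma adjusted p = 0.0364). DUSP6, the ERK-specific phosphatase, had 13.6 and 12.0 with ZSCAN18, against 21.1 and 18.6 with the empty vector (log2 -0.60, limma adjusted p = 0.0723), and it overlaps an expressed clone-named gene on the opposite strand. ETV5, an ETS factor that ERK signalling induces, stood at 0.56, and DUSP7, another ERK phosphatase, at -0.24, and neither passed. The feedback genes thus differed in sign from one another.

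In the list of MAP kinases, SRF and partner proteins 0 of 22 tested genes passed in limma, and the median was 0.16. An unadjusted p under 0.05 was given to 11 of them, against 26.8% of all tested genes. In the lists above, in order, 5 of 9, 12 of 27 and 7 of 17 genes had such a p. Of AP-1 targets 7 of 14 did. SRF, the factor that binds CArG boxes, had 13.4 and 14.5 FPKM with ZSCAN18, against 10.7 and 10.9 with the empty vector (log2 0.34, limma adjusted p = 0.0827). The JNK gene MAPK8 stood at 0.39, the coactivator CREBBP at 0.44 and the stress kinase MAP3K5 at -0.34, with limma adjusted p-values of 0.0807 to 0.0837. Among 14 tested AP-1 target genes 0 rose and 1 fell, with a median of -0.21. MT2A, a metallothionein whose promoter is a classical AP-1 target, fell to 9.91 and 10.1 with ZSCAN18, against 21.3 and 18.8 with the empty vector (log2 -0.94, SE 0.080, limma adjusted p = 0.0383); metallothioneins are close copies, so its reads may be shared with relatives. TIMP1, a protease inhibitor, had 82.5 and 98.5 with ZSCAN18, against 158.8 and 144.2 with the empty vector. Its log2 fold change was -0.74 (limma adjusted p = 0.0649, and 0.0499 with the filter at 5). ITGA2, an integrin chain, stood at -0.27 without passing. The authors' deposited table differs from limma for some of these genes. There TIMP1, DUSP6 and IER5L had q-values of 5.43e-04, 0.0135 and 0.0396, and MAFF had 0.0610. The calls of CREB1, MAFF, ID1, DUSP14 and MT2A all ended when any 1 of the 4 libraries was left out, with the lowest limma adjusted p at 0.146. Those fits called 0 or 1 gene of the whole table, and ZSCAN18 itself did not pass without its first or its second ZSCAN18 library (limma adjusted p = 0.0864 and 0.0849), so the lost calls say nothing of stability. The log2 fold changes in those fits were 1.01 to 1.09 for CREB1, 0.64 to 0.73 for MAFF, -0.90 to -0.87 for ID1, 0.73 to 0.81 for DUSP14 and -1.02 to -0.85 for MT2A. With all 4 libraries but no variance trend, MAFF, DUSP14 and MT2A did not pass (limma adjusted p = 0.0543, 0.0503 and 0.0503). Without a filter none of the 5 passed (limma adjusted p = 0.0722 to 0.146).

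**Figure D4:**
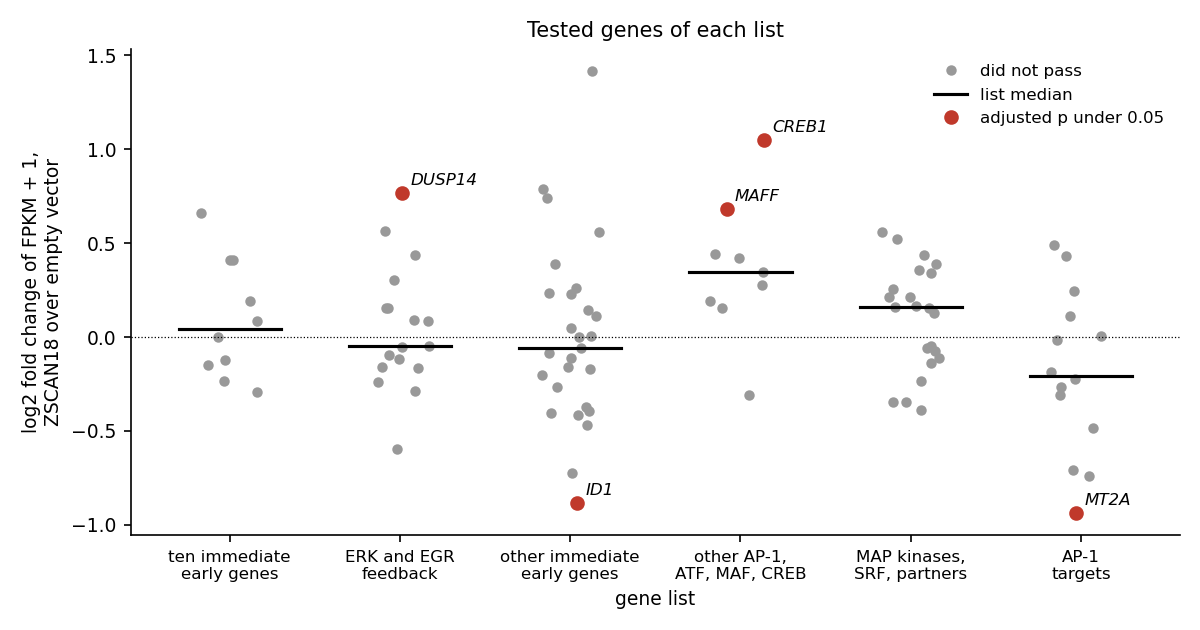
Log2 fold change of FPKM + 1, ZSCAN18 over empty vector, for every tested gene of the 10 immediate early genes and the 5 related lists; red points passed, black lines are list medians. The medians run from -0.21 for AP-1 targets to 0.35 for other AP-1 family genes; the grey point at 1.42 is MYC, whose value rests on 1 library.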

How the data were processed

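RNA from 4 NCI-N87 libraries was analysed from 1 deposited table. Tools named without a role in the submitters' processing notes are the aligner HISAT2 2.0.4, the assembler StringTie 1.3.4d, the trimmer cutadapt 1.9, FastQC 0.10.1, DESeq2 and edgeR 3.2.5. Per the file headers, the authors deposited an FPKM per library and, for the comparison, a linear fold (ratio), its log2 value, a p-value and a q-value, which were only described; an FPKM of 0.0001 was taken as no signal. The empty vector columns carry sample titles; the other 2 were assigned to ZSCAN18 by elimination, and their numbers are those of the columns.

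No source used here names the genome build; 99.74% of 58394 gene starts lay within 100 kb of those in GENCODE release 29, so positions are given as GRCh38. Depth was estimated from 22313 genes of 1 exon and 1 transcript, taking the most common FPKM times length in kb between 0.03 and 0.06 as 1 fragment; it rests on that window, and whole fragments per gene were not recovered.

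The 11822 genes that reached an FPKM of 1 in 2 or more libraries were fitted with limma 3.58.1 in R 4.3.3 on log2(FPKM + 1), with trended eBayes (2 residual and 2.01 prior degrees of freedom), two-sided, at an adjusted p of 0.05; the scale understates changes of low genes. The test was run 10 times on simulated data with shifts planted in 200 genes. Noise was drawn as normal and independent, with the spreads estimated by the fit, so the rates hold for that setting alone. Shifts of 1 on the log2 scale were recovered at 86.9% and shifts of 2 at 95.8%, and 6.02% of the calls were false. The differences of the 10 members were smaller than these shifts, so recovery at their size was not tested. The 10 members and the lists were chosen with earlier results of these data known. Named genes are the 10 members, ZSCAN18, the 4 lowest p-values of each list and the 3 genes most like KLF6, the member with the lowest p; some genes of the lists are not reported here. Alternatives were pseudocounts, filters, scalings, no variance trend, a replicate block and each library left out.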

Additional observations from a re-analysis of the deposited data

How the results depend on the processing

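None of the 10 genes passed in limma under any of the 12 alternatives; the lowest adjusted p was 0.0571, for KLF6 with a filter at an FPKM of 5, which also left FOS and ATF3 untested. The sign of 8 of the 10 held throughout. With a library left out FOS ranged from -0.45 to 0.15 and IER2 from -0.069 to 0.065, and IER2 was at 0.011 with quantile normalization; the cause was not tested. The count over the whole table, 209, became 1 without a filter, 370 with the filter at 5, 99 without the variance trend and 1 with the replicate block, and lay between 0 and 1 with a library left out; fits with fewer libraries or a block have fewer residual degrees of freedom. The count over the related lists, 5, became 0 without a filter, 9 with the filter at 5 (2 up and 7 down), 8 with median-of-ratios scaling (3 up and 5 down), 2 without the trend, 0 with the replicate block and 0 with any library left out. The replicate block took the numbers of the columns. Deviations of same-numbered libraries correlated at 0.034 across genes, which cannot show whether these libraries were prepared together. Median-of-ratios scaling moved the median of all genes by -0.04. By the fragment estimate, FOS and ATF3 had the largest counting error of the 10 genes, and its part in their spread was not tested.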

Other observations

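Some genes near the 10 differed widely between libraries of 1 group. Of the 99 tested genes in the 10 and the related lists, 9 had libraries of 1 group more than 2-fold apart, 9.09% against 6.16% of all tested genes, and 0 of the 10 did. MYC had an FPKM of 30.5 and 3.02 with ZSCAN18, against 2.40 and 4.22 with the empty vector, so 1 ZSCAN18 library stood apart. PHLDA1, an early gene that ERK signalling induces, had 32.3 and 11.9 with ZSCAN18, against 12.5 and 36.4 with the empty vector, high in 1 library of each group. The first ZSCAN18 library was also high for the ETS factor ELK3, at 11.5 and 4.00 with ZSCAN18, against 4.34 and 4.71 with the empty vector. The same library was high for the p38 kinase gene MAPK14, at 6.11 and 2.54 with ZSCAN18, against 2.39 and 2.43 with the empty vector. KLF4, a relative of KLF6, had 17.2 and 16.2 with ZSCAN18, against 13.3 and 6.33 with the empty vector, and MAFK 4.07 and 4.80 with ZSCAN18, against 3.37 and 9.32 with the empty vector. The others were MMP1, MRTFB and CXCL8.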
